A study of Mus musculus with 74 samples.

Results

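The genomic sites described here are the binding sites of GPS2 at active promoters of mouse liver. They were taken from the GPS2 peaks of Gps2 wild-type (WT) liver as those lying within 1000 bp of an annotated transcription start site and overlapping by at least 1 bp an H3K4me3 peak in each of the 2 WT H3K4me3 peak lists. Of the 48968 GPS2 peaks, 11718 (23.9%) met this rule, and they are called promoter peaks below. They lay nearest to the start sites of 8913 genes, of which 6465 had 1 promoter peak and 2448 had 2 or more, with at most 5. A further 36645 GPS2 peaks lay beyond 1000 bp of a start site and are called distal peaks. The remaining 605 lay within 1000 bp but lacked H3K4me3, with 146 of them in 1 of the H3K4me3 lists and 459 in neither.

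GPS2 is a subunit of a nuclear corepressor complex built on the scaffold proteins NCOR (encoded by Ncor1) and SMRT, together with the histone deacetylase HDAC3 and the adaptors TBL1X and TBL1XR1. Such complexes bind nuclear receptors that are not activated by ligand and remove acetyl groups from histones. PPARa is a lipid-sensing nuclear receptor that pairs with RXRA and drives fatty acid oxidation and ketogenesis in the liver. H3K4me3 marks the start sites of active genes, H3K27ac marks active promoters and enhancers, and RNA polymerase II (Pol II) is the enzyme that transcribes them.

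The mice were C57BL/6 animals of 8 to 12 weeks on normal chow, and every sample was liver. In the deposited counts, the H3K27ac and H3K4me3 libraries of GPS2_WT and GPS2_LKO are named as fed. The other libraries are named there without a feeding state. In the GPS2_LKO group Gps2 was deleted with a Cre recombinase driven by the albumin promoter, which is active in hepatocytes, so other liver cells kept the gene. Its controls, GPS2_WT, were Gps2 flox/flox animals of the same breedings without Cre. NCOR_LKO and SMRT_LKO livers lacked those corepressors in hepatocytes, PPARa_KO mice lacked Ppara in the whole body, and each had its own WT group. Chromatin immunoprecipitation with sequencing (ChIP-seq) was done for GPS2 and Pol II in GPS2_WT and GPS2_LKO with 1 library each, for H3K27ac and H3K4me3 with 2 each, and for NCOR and PPARa with 3 each. The NCOR line held 3 libraries per group for GPS2, PPARa and H3K27ac, and the SMRT line held 3 per group for H3K27ac. The PPARa line held 3 per group for GPS2 and NCOR and 2 per group for PPARa. RNA-seq had 4 libraries for GPS2_WT and 4 for GPS2_LKO. The 74 samples fell into 30 groups, including 2 input libraries that entered no comparison. Each ChIP-seq library pooled 2 to 4 immunoprecipitations, and p-values measure only the spread between these samples.

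The ChIP-seq libraries held 7.90 M to 46.1 M tags and the RNA-seq libraries 13194385 to 20086127 reads. Several libraries stood apart. In the GPS2 ChIP of the NCOR line, WT replicate 3 had 3.07% of its tags in peaks against 8.23% and 7.82% in the other WT libraries, whereas the LKO libraries had 2.45% to 3.15%. In the PPARa ChIP of the same line, WT replicate 3 had 8.96% against 19.3% and 18.6%. In the GPS2 ChIP of the PPARa line, WT replicate 3 had 4.39% against 2.55% and 2.42%. Peak by peak, the 3 PPARa libraries of GPS2_WT differed from each other about as much as sampling noise alone, and they were counted as 1 sample. The mean chi-square per peak between them, after scaling to their tags in peaks, was 0.987 to 0.998, where sampling noise gives about 1. Their shares of tags in peaks, which this check leaves out, were 19.2%, 21.9% and 19.8%. These libraries touch results given below, where counts without them, or with the PPARa libraries kept separate, are given. In RNA-seq, LKO replicate 2 stood apart from the other LKO libraries.

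The promoter peaks that carried the motif matches described below are shown first, as the plus strand of mm9, each with the most GPS2 tags in WT liver among promoter peaks whose bases outside annotated exons hold that motif. Ndrg2 is shown because it had the most GPS2 tags of all promoter peaks, and Pdk4 was chosen by name. Capitals mark the match. In Pdk4 (chr6:5446397-5446533) and Ndrg2 (chr14:52532220-52532356) it is CCAAT, in Rabgef1 (chr5:130647483-130647619) the ETS motif CCGGAAGT, and in Slc25a25 (chr2:32279699-32279835) the CREB/ATF motif TGACGTCA. In Fbxl19 (chr7:134889274-134889410), Socs2 (chr10:94879492-94879604) and Cp (chr3:19856947-19857053) the capitals are the reverse complement of the YY1 motif AAGATGGCG, the SP/KLF motif GGGCGG and the NRF1 motif GCATGCGC. All lie upstream of the start site and outside annotated exons.
Pdk4: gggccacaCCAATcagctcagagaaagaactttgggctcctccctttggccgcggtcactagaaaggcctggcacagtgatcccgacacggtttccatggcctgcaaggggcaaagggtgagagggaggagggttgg
Ndrg2: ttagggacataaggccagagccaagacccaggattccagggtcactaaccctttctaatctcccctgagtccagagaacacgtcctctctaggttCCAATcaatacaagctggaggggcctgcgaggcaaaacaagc
Fbxl19: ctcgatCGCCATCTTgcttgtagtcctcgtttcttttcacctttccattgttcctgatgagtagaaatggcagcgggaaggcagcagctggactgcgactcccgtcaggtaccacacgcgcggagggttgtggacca
Rabgef1: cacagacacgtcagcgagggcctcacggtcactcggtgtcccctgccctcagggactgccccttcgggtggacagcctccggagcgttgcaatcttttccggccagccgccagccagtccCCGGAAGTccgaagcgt
Socs2: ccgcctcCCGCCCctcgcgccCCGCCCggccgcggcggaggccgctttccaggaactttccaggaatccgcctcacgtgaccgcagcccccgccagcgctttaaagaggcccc
Cp: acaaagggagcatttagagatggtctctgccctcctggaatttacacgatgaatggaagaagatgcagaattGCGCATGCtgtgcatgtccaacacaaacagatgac
Slc25a25: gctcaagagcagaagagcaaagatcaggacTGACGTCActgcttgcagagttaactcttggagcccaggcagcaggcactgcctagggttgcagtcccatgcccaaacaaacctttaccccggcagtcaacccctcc

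These promoter peaks lost GPS2 in the knockout. Pdk4 held 97 GPS2 tags in WT and 0 in LKO, and Ndrg2 held 119 and 1. Socs2 went from 111 tags to 0, Cp from 52 to 1, Slc25a25 from 50 to 1, Rabgef1 from 48 to 0 and Fbxl19 from 29 to 1.

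Promoter peaks were GC-rich and held motifs of ubiquitous promoter factors, whereas distal peaks held motifs of nuclear receptors and liver factors. The 13 motifs were searched on both strands in 201-bp windows centred on the peaks, which could be read for 11709 promoter peaks and 36599 distal peaks. The median GC content was 64.7% at promoter peaks and 48.3% at distal peaks, and the median ratio of observed to expected CpG was 0.80 against 0.21. GGGCGG, bound by SP and KLF factors, was found in 55.2% of promoter peaks and 6.31% of distal peaks. CCGGAAGT, bound by ETS factors such as GABPA, was found in 6.18% against 0.421%, a ratio of 14.7. AAGATGGCG, bound by YY1, was found in 2.64% against 0.0738%, a ratio of 35.8. GCATGCGC, bound by NRF1, a regulator of mitochondrial genes, was found in 2.80% against 0.377%, and TGACGTCA, bound by CREB and ATF factors, in 2.34% against 0.396%. The E box CACGTG was found in 7.15% against 4.09%.

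The opposite order held for the nuclear receptor site AGGTCA, which was found in 12.5% of promoter peaks and 33.5% of distal peaks. A pair of AGGTCA copies spaced by 1 base with at most 1 mismatch, the DR1 element that PPARa binds with RXRA, was found in 82 promoter peaks (0.700%) and in 2.67% of distal peaks. The HNF4A motif CAAAGTCCA was found in 0.700% against 2.42%, the FOXA motif TGTTTAC in 2.31% against 7.23%, and the C/EBP motif, TTGCACAA or TTGCGCAA, in 1.06% against 3.26%. TATAAA was found in 3.22% against 6.99% and CCAAT in 21.1% against 26.7%. A match to AGGTCA can be part of a DR1 match, and the CpG-holding motifs share bases with GC-rich sequence in general, so base composition moves with these shares.

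The motif shares were also set beside start sites of the same H3K4me3 class. Of the 12673 protein-coding start sites with H3K4me3 in both WT lists, 8604 had a promoter peak and 3879 had no GPS2 peak. The ETS motif was found in 8.48% of start-site windows with a promoter peak and in 3.87% without GPS2, and the YY1 motif in 3.64% against 2.11%. NRF1 matches were found in 4.56% against 3.12%, CREB/ATF matches in 3.24% against 2.09% and SP/KLF matches in 63.1% against 57.8%. Motifs of nuclear receptors and liver factors were not all lower there, with HNF4A at 0.256% against 0.129% (a ratio of 1.98), FOXA at 1.38% against 0.799% (1.73), AGGTCA at 6.79% against 5.54% (1.23), C/EBP at 0.349% against 0.387% and DR1 at 0.232% against 0.284%. At least 1 of the ETS, NRF1, YY1 and CREB/ATF motifs was found in 18.5% of start sites with a promoter peak and in 10.7% of those without, at a median GC content of 66.2% and 64.7%. Over all 22380 protein-coding start sites of the annotation this share was 9.97%, with 4.21% for ETS, 1.94% for YY1, 2.58% for NRF1, 1.93% for CREB/ATF and 40% for SP/KLF. The same windows held the E box in 5.56%, CCAAT in 27.5%, TATAAA in 8.21%, AGGTCA in 8.91% and DR1 in 0.299%. Start sites with another protein-coding start site on the other strand within 1000 bp upstream made up 14.4% (1236 of 8604) of those with a promoter peak. Among start sites without GPS2 they made up 6.70% (260 of 3879). A promoter peak within 1000 bp counted for both start sites of such a pair, so the shared window can raise the first share. The part of the window was not tested.

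**Figure D1:**
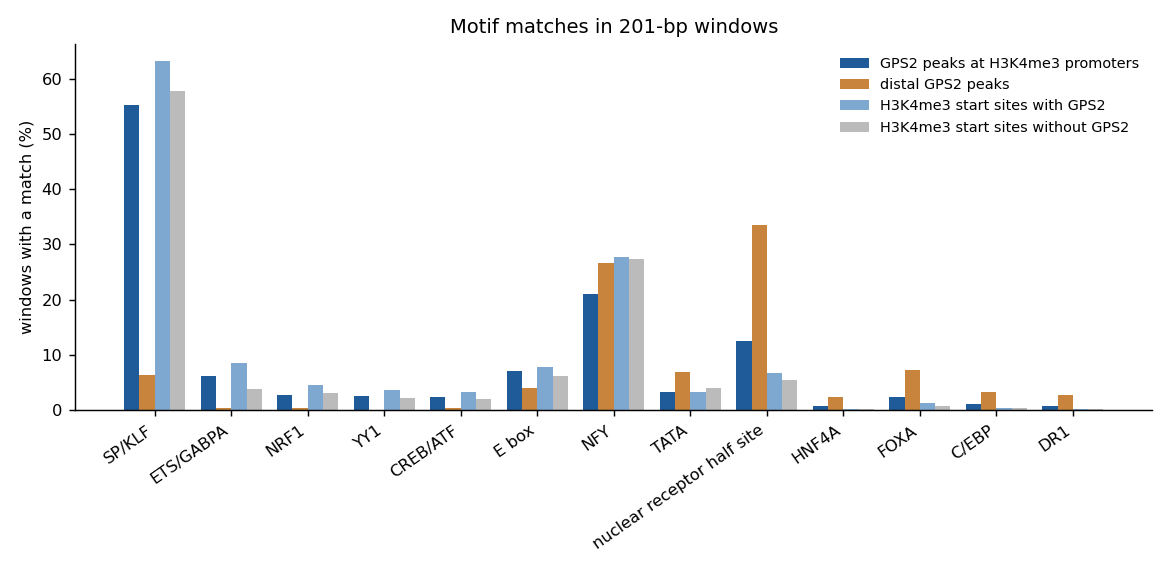
Percent of 201-bp windows that hold each of the 13 motifs, for GPS2 promoter peaks, distal GPS2 peaks, H3K4me3 start sites with a promoter peak and H3K4me3 start sites without a GPS2 peak. SP/KLF matches reach 55.2% of promoter peaks against 6.31% of distal peaks, and AGGTCA shows the opposite order at 12.5% against 33.5%.

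Promoter peaks crowded around the start site. Each peak was 137 bp wide, and the median distance of its centre from the start site was 6 bp, with quartiles at -98 and 110 bp. Of the promoter peaks, 5782 (49.3%) lay within 100 bp and 8085 (69.0%) within 250 bp. Upstream of the start site lay 5594, and 6124 lay at or downstream of it. The nearest gene was protein-coding for 11145 of them and non-coding for 529. At its edge, 249 promoter peaks lay in the outermost 100 bp of the rule, and 207 GPS2 peaks with H3K4me3 in both lists lay in the 100 bp beyond it.

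**Figure D2:**
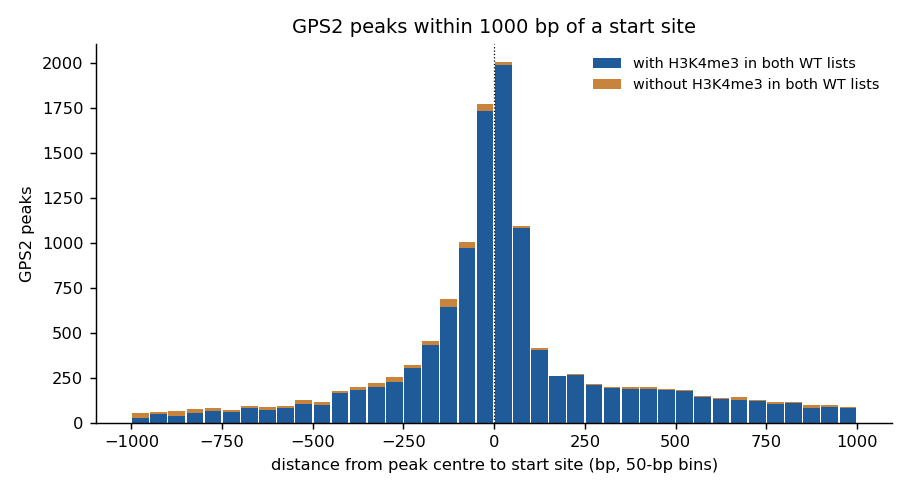
Number of GPS2 peaks in 50-bp bins of distance from peak centre to start site, stacked for peaks with H3K4me3 in both WT lists and peaks without. The bin just downstream of the start site holds 1990 promoter peaks and the bin just upstream 1730, with the counts falling away on both sides.

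GPS2 was almost gone from promoter peaks in GPS2_LKO liver. Since the WT library chose these peaks and each group had 1 library, the values are a description with no test, and the intervals are exact 95% Poisson intervals for counting error. In WT liver a promoter peak held a median of 16 tags (range 5 to 119, quartiles 11 and 24), and in LKO liver a median of 1 tag (at most 20), with 5739 (49.0%) at 0. Summed over promoter peaks, the WT library held 147110 tags per 10 M total tags (146507 to 147715) and the LKO library 6083 (5958 to 6210). The sum was 24.2-fold lower in LKO, and at distal peaks it was 23.1-fold lower. More than 2-fold lower were 11699 promoter peaks (99.8%) and more than 2-fold higher were 0, beside 99.6% and 0.102% of all peaks in the count table. The LKO peak list held 52 peaks, of which 1 overlapped a promoter peak.

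In WT liver the promoter peaks were rich in active marks and Pol II and poorer in NCOR and PPARa than distal peaks. Levels here are tags per 10 M total tags over the peak called for each factor, not scaled for peak width. At promoter peaks the median width was 3812 bp for H3K27ac peaks and 3796 bp for H3K4me3 peaks. Because the rule required H3K4me3 in both WT lists, its level at promoter peaks is a description of the selection. H3K4me3 at promoter peaks had medians of 551 and 514 in the 2 WT libraries, H3K27ac had 282 and 269, and Pol II had 95.2 against 14.6 at distal peaks. The NCOR libraries of GPS2_WT had medians of 12.2, 11.5 and 7.54, and the PPARa libraries 15.2, 18.0 and 16.9. The H3K27ac peak lists of the WT groups covered 98.6% to 99.3% of promoter peaks and 72.4% to 76.6% of distal peaks, and the Pol II list covered 63.6% against 16.3%. NCOR showed the reverse, with 44.6%, 44.3% and 25.7% of promoter peaks in the 3 WT lists against 73.8%, 73.9% and 56.4% of distal peaks. PPARa lists held 47.7%, 58.6% and 52.6% against 69.2%, 76.7% and 71.7%.

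Corepressor and receptor shared part of the promoter peaks. In at least 2 of the 3 GPS2_WT lists, NCOR was found at 4305 promoter peaks (36.7%) and PPARa at 6142 (52.4%). Both were found at 3233 (27.6%) and neither at 4504 (38.4%), whereas at distal peaks 58.4% had both and 15.2% neither. The PPARa libraries of the PPARa line, in which the antibody could be set against tissue without the receptor, gave far fewer peaks. Their 2 WT lists held 5.50% and 7.07% of promoter peaks and 20.2% and 24.5% of distal peaks, and the 2 KO lists held 0.0768% and 0.0171% of promoter peaks. PPARa was in both WT lists of that line at 468 promoter peaks (3.99%) and at 15.1% of distal peaks.

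**Figure D3:**
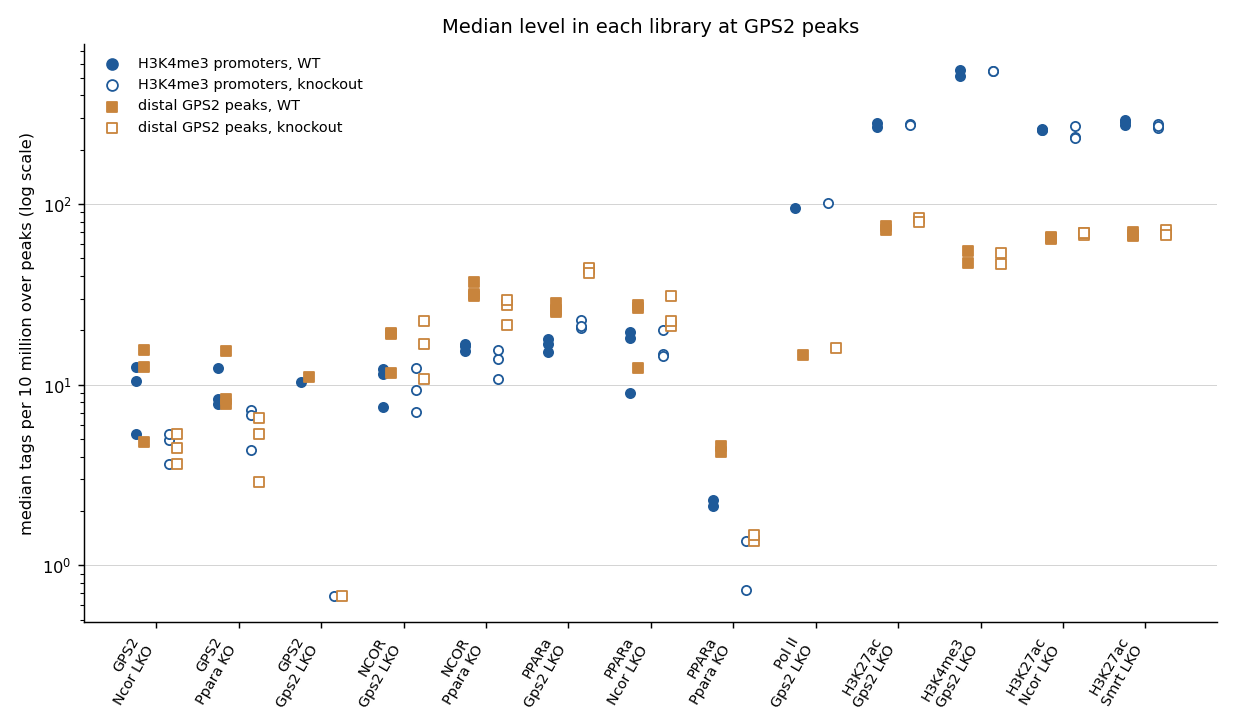
Median tags per 10 M total tags (log axis) in every ChIP-seq library, at promoter peaks (circles) and distal peaks (squares), filled for WT and open for knockout. H3K4me3, which the rule required at promoter peaks, is higher there than at distal peaks, as are H3K27ac and Pol II. NCOR and PPARa are lower at promoter peaks in every library but 1 PPARa_KO library, where the medians are equal at 1.37. At promoter peaks GPS2 goes from 10.3 in GPS2_WT to 0.676 in GPS2_LKO.

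Promoter peaks with more GPS2 had more of the other factors. Across promoter peaks, which share libraries and base composition and are not independent replicates, GPS2 tags in GPS2_WT correlated (Spearman) with PPARa at 0.61, NCOR at 0.54, H3K27ac at 0.48, Pol II at 0.36 and H3K4me3 at 0.32. The correlation with GPS2 in the WT livers of the NCOR line was 0.74 and with GPS2 in those of the PPARa line 0.53. From the lowest to the highest 25% of promoter peaks by GPS2 tags, the median PPARa level went from 10.5 to 36.8, NCOR from 6.89 to 22.2 and H3K27ac from 193 to 587. Pol II went from 72.9 to 124, and the RNA of the nearest gene from 4.08 to 14.2 RPKM, reads scaled for exon length and library size. The 82 promoter peaks with a DR1 match had a median of 26 GPS2 tags against 16 in the rest, a PPARa level of 44.4 against 16.6 in GPS2_WT and a Pol II level of 76.8 against 95.2.

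The genes of the corepressor complex and its receptor partners were themselves among the promoter peaks. Ncor1 held a peak at -28 bp with 27 GPS2 tags in WT and 0 in LKO, Tbl1x one at -521 bp with 28 and 0, and Hdac3 one at -20 bp with 12 and 0. Tbl1xr1 held a pair of peaks, at 0 and -287 bp, with 112 and 64 tags in WT and 0 in LKO. No GPS2 peak lay nearest to Gps2. Among receptors, Ppara held a peak at 43 bp with 45 tags, Hnf4a one at 4 bp with 43 tags, and Rxra a pair at -995 and -342 bp with 35 and 28 tags.

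H3K27ac at promoter peaks stayed close to WT in GPS2_LKO liver, with a rise at a small number of genes. Of 8476 H3K27ac peaks that overlapped a promoter peak, 53 rose (0.625%) and 8 fell (0.0944%) by edgeR's quasi-likelihood test at a Benjamini-Hochberg adjusted p below 0.05, beside 1.21% and 0.212% of all H3K27ac peaks. Log2 fold changes had a median of 0.00 at promoter peaks and 0.10 at distal peaks. H3K27ac and H3K4me3 peaks spanned whole promoters of several kilobases or more, so 1 such peak can cover several GPS2 peaks and several genes. The H3K4me3 peak named below for Apoc3 ran over chr9:46000981-46057606, and both mark peaks of Acot4 over chr12:85377778-85399074. A change in such a peak need not lie at the promoter of the named gene. With 2 libraries a group, leaving out either WT library ended all of these calls, and leaving out LKO replicate 1 gave 165 higher and 110 lower.

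The rises included genes of fatty acid handling. Acot4, which cleaves acyl-CoA in peroxisomes, had H3K27ac levels of 313 and 406 in WT and 758 and 1133 in LKO (log2 fold change 1.39 ± 0.19 SE, edgeR adjusted p = 0.0223). Acot1, its cytosolic relative, had 97.1 and 141 against 231 and 298 (1.14 ± 0.19, edgeR adjusted p = 0.0339). Fgf21, a fasting hormone, had 193 and 260 against 438 and 437 (0.95 ± 0.13, edgeR adjusted p = 0.0232). In all 3 the LKO libraries lay above both WT libraries. Acot1 and Acot4 belong to a family of similar copies on one chromosome, which makes reads harder to place.

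Large changes also lay outside lipid metabolism. H2-Q1, a class I histocompatibility gene, had H3K27ac levels of 26.8 and 26.6 in WT and 95.9 and 85.2 in LKO (log2 fold change 1.76 ± 0.16, edgeR adjusted p = 0.00792), and Cdc42ep5, an effector of the small GTPase CDC42, had 269 and 294 against 942 and 605. C4a, which belongs to the complement C4 family, had 477 and 359 against 160 and 81.2, a log2 fold change of -1.80. Zfp445, a zinc finger gene, had 2032 and 1510 against 884 and 606, and Dpy19l3 had 172 and 136 against 77.1 and 62.5. H2-Q1 and C4a have near-identical copies in the genome, so their reads may be shared with another copy.

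H3K4me3 changed at somewhat more promoter peaks. Because the WT H3K4me3 lists chose the promoter peaks, these counts are a description. Of 8510 H3K4me3 peaks at promoter peaks, 95 were higher (1.12%) and 10 lower (0.118%) at an edgeR adjusted p below 0.05, beside 0.798% and 0.118% of all H3K4me3 peaks, and the median log2 fold change was 0.03 against -0.02 at distal peaks. Leaving out 1 library gave 43 to 140 higher, with the lowest count without WT replicate 2, and 3 to 19 lower, and the replicate block gave 249 and 40. Fgf21 had levels of 61.8 and 92.5 in WT and 222 and 232 in LKO, and Acot1 had 104 and 134 against 262 and 382. Slc16a5, a monocarboxylate transporter gene, had 87.3 and 108 against 283 and 235. Acaa1b, a peroxisomal thiolase of beta-oxidation, had 682 and 649 against 1308 and 1205. In these 4 genes the LKO libraries lay above both WT libraries, at log2 fold changes of 1.56, 1.44, 1.41 and 0.92. Smaller differences were seen at Fabp1 (0.42) and Plin2 (0.40), which code for a fatty acid carrier and a lipid droplet coat, and at Apoc3 (0.48) and Fasn (0.44). Lower were C4a at -1.78, Selenbp2 at -1.69 with 537 and 410 against 189 and 105, and the steroid dehydrogenase gene Hsd3b5 at -1.25 with 502 and 475 against 259 and 152. Selenbp2 and Hsd3b5 also belong to families of near-identical copies.

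The called promoter marks and the RNA of the same gene mostly had the same direction in these livers. Of the 53 genes with higher H3K27ac, 48 were tested in RNA-seq, and 41 rose and 0 fell, with a median log2 fold change of 0.72. All 8 genes with lower H3K27ac fell in RNA, at a median of -1.39. Of the 8084 genes whose H3K27ac was not called, 1616 rose and 2023 fell in RNA, at a median of -0.02. The 95 higher H3K4me3 peaks gave 101 genes, since a peak that covered promoters of several genes counted for each. Of the 97 genes tested with higher H3K4me3, 66 rose and 10 fell in RNA, at a median of 0.47. Those that fell included Elovl3 (H3K4me3 0.49, RNA -2.68), Sult2a8 (0.33 and -1.30) and Malat1 (0.32 and -1.04). Of the 10 genes with lower H3K4me3, 0 rose and 9 fell in RNA. Of the 8036 tested genes whose H3K4me3 was not called, 1591 rose and 2014 fell in RNA. Both marks were higher at 25 genes, of which 24 were tested in RNA, 22 rose and 0 fell, at a median of 0.99. The 25 included Acot1, Acot4, Fgf21, the fatty acid elongase Elovl5, the sterol sensor Insig2, the drug-metabolizing Cyp3a11, the prolactin receptor Prlr and the lipid transporter Mfsd2a. RNA did not pass the test at Cyp3a11 (log2 fold change 0.05, edgeR adjusted p = 0.576) or at Cp (-0.00, edgeR adjusted p = 0.994). Both marks were lower at C4a and Rarres1. After the exon length trend described below was removed from RNA, 43 of the 48 genes with higher H3K27ac rose and 1 fell.

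**Figure D4:**
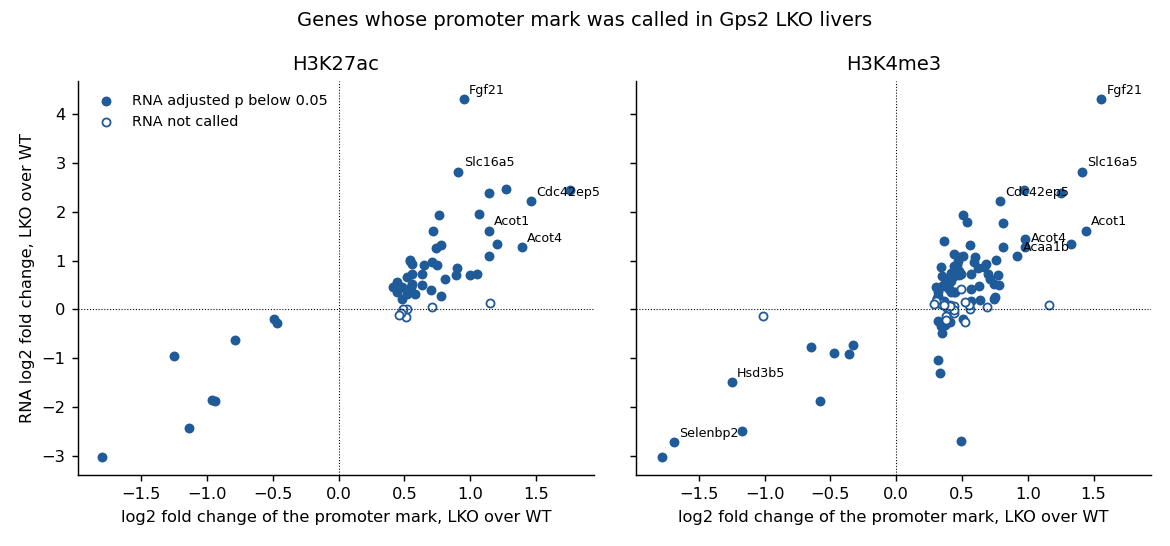
RNA log2 fold change against promoter mark log2 fold change (LKO over WT) for each gene whose H3K27ac (left) or H3K4me3 (right) peak at a promoter peak was called, with filled points for genes whose RNA passed the edgeR test. Fgf21 lies highest at an RNA change of 4.30, and the genes with lower marks, such as C4a at -3.01, lie at the lower left.

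At promoter peaks, no NCOR peak was called in GPS2_LKO liver by edgeR scaled to all tags. Median levels were 12.2, 11.5 and 7.54 in WT and 9.39, 12.3 and 7.05 in LKO, so the groups overlapped. Of 8450 NCOR peaks at promoter peaks, 0 rose and 0 fell by edgeR, beside 0.0124% and 0.00495% of all NCOR peaks, and at an unadjusted p below 0.05 there were 10 higher and 44 lower. DESeq2 called 0 higher and 1 lower, TMM scaling 0 and 5, and the fit with the replicate block 1 and 4. The median log2 fold change was -0.13 at promoter peaks and -0.03 at distal peaks. Of all tags in NCOR peaks, promoter peaks held 11.0%, 10.9% and 10.7% in WT and 9.87%, 10.2% and 10.5% in LKO, so the WT shares all lay above the LKO shares.

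PPARa signal per total tags was higher in GPS2_LKO liver, more so at distal peaks than at promoter peaks, but the direction at promoter peaks depended on scaling. Median levels at promoter peaks were 15.2, 18.0 and 16.9 in the 3 WT libraries and 20.7, 22.7 and 21.1 in LKO, with no overlap. The fit set the merged WT sample against 3 LKO libraries, so that the lone WT sample was assumed to vary like the LKO libraries. Scaled to all tags, 821 of 9840 PPARa peaks at promoter peaks rose (8.34%) and 12 fell (0.122%) by edgeR, beside 21.5% and 0.147% of all PPARa peaks and 35.7% higher at distal peaks. With the WT libraries kept separate, 2132 rose and 24 fell. The median log2 fold change was 0.39 at promoter peaks and 0.63 at distal peaks. Under TMM scaling, which sets the typical peak to no change and moved the median of all peaks by -0.60, the medians were -0.21 and 0.02, and 1 promoter peak rose and 54 fell. DESeq2 called 0 higher and 1 lower. TMM shifts all peaks of a comparison alike, so it leaves the gap between promoter and distal peaks almost as it was by construction. The share of tags in peaks was 32.1%, 30.3% and 28.9% in the LKO libraries and 19.2%, 21.9% and 19.8% in WT, and the part of this in the result was not tested.

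The following promoter peaks were called for PPARa when scaled to all tags. The WT levels are those of 3 libraries that entered the fit as 1 sample. Nr1d1, a clock repressor, had PPARa levels of 49.4, 50.3 and 57.5 in WT and 117, 140 and 111 in LKO (log2 fold change 1.22 ± 0.26, edgeR adjusted p = 1.9e-04). Acot1 at one of its peaks had 7.59, 8.55 and 12.4 against 18.4, 36.0 and 32.8 (1.64 ± 0.36, edgeR adjusted p = 4.2e-04). Fgf21 had 31.6, 25.6 and 24.8 against 54.0, 54.0 and 42.8 (0.87 ± 0.28, edgeR adjusted p = 0.0177). At these 3 genes the LKO levels lay above the WT levels, which count as a single value. Polg, the mitochondrial DNA polymerase, had 45.6, 54.1 and 60.9 against 107, 86.2 and 99.7 (0.86), and Uqcrq, a subunit of complex III, had 43.0, 32.3 and 25.9 against 62.1, 59.7 and 46.9 (0.73). The largest rise was at Adgrf5, an adhesion receptor gene, with 7.59, 18.0 and 20.3 against 62.1, 64.4 and 51.0 (1.89). The largest fall was at Zbtb25, a zinc finger gene, with 62.0, 85.5 and 75.5 against 39.1, 43.6 and 28.7 (-1.06). Of the 704 genes with higher PPARa that were tested in RNA, 187 rose and 179 fell, at a median of 0.00, beside 20.5% and 24.8% of all tested genes with a promoter peak.

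Pol II at promoter peaks was much alike in the single WT and LKO libraries. Summed over the 7906 Pol II peaks at promoter peaks, the level was 805028 tags per 10 M in WT (803400 to 806658) and 849310 in LKO (847654 to 850967), a ratio of 1.06. More than 2-fold higher were 30 (0.379%) and more than 2-fold lower 42 (0.531%), beside 7.72% and 5.94% of all Pol II peaks. At distal peaks 10.5% were higher and 6.82% lower, where the median level was 14.6 tags in WT and 16.0 in LKO, so fewer tags stood behind each of their folds.

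GPS2 at promoter peaks was lower per total tags in NCOR_LKO liver, but no promoter peak was called, and this count depended on 1 WT library, the filter and the replicate block. Median levels were 10.5, 12.5 and 5.36 in WT and 4.93, 5.31 and 3.64 in LKO, so the lowest WT library lay just above the highest LKO library. Of 8989 GPS2 peaks at promoter peaks, 0 rose and 0 fell by edgeR, beside 0% and 0.0338% of all peaks, and at an unadjusted p below 0.05 there were 2 higher and 2745 lower. Without WT replicate 3, 5929 fell, with filterByExpr 144 of 5492 fell, and with the replicate block 1431 fell. The median log2 fold change was -1.09 at promoter peaks and -1.31 at distal peaks, and under TMM scaling, which moved the median of all peaks by 1.08, it was -0.02 and -0.21, with 9 promoter peaks higher and 18 lower. DESeq2 called 5 higher and 0 lower. GPS2 lists held 60.6%, 60.1% and 25.8% of promoter peaks in WT and 20%, 24.4% and 9.31% in LKO.

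No promoter peak passed the test for PPARa in NCOR_LKO liver. Median levels were 19.7, 18.2 and 9.03 in WT and 14.8, 14.4 and 20.1 in LKO, so the groups overlapped. Of 10555 peaks, 0 rose and 0 fell by edgeR, beside 0.151% and 0.0453% of all PPARa peaks, with 25 higher and 21 lower at an unadjusted p below 0.05. DESeq2 called 2 higher and 5 lower, and without WT replicate 3 there were 9 lower. The median was a log2 fold change of 0.06, and -0.05 under TMM scaling.

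H3K27ac at promoter peaks in NCOR_LKO liver changed in both directions. Of 8486 H3K27ac peaks, 68 rose (0.801%) and 50 fell (0.589%) by edgeR, beside 2.32% and 0.801% of all H3K27ac peaks. Log2 fold changes had a median of -0.06 at promoter peaks and 0.07 at distal peaks. Vnn1, a pantetheinase gene and PPARa target, had levels of 74.2, 77.7 and 74.9 in WT and 225, 147 and 192 in LKO (1.31 ± 0.16, edgeR adjusted p = 0.00422). Ehhadh, the bifunctional enzyme of peroxisomal oxidation, had 637, 615 and 663 against 1197, 1270 and 1045 (0.87 ± 0.10, edgeR adjusted p = 0.00349). In both, every LKO library lay above every WT library. Scd1, the stearoyl-CoA desaturase, had 932, 786 and 1246 against 1939, 1708 and 1361 (0.76), and the promoter factor gene Usf2 had 3828, 3813 and 4003 against 3054, 2984 and 2630 (-0.43 ± 0.09, edgeR adjusted p = 0.0342). The largest rise was at Ginm1 with 237, 190 and 159 against 568, 670 and 755, and the largest fall at Clec2h, a lectin gene, with 146, 187 and 158 against 51.8, 21.7 and 48.6. Leaving out 1 library gave 19 to 95 higher, with the lowest count without WT replicate 2, and 7 to 113 lower, with the highest count without LKO replicate 1.

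In SMRT_LKO liver no promoter peak passed the test. Median H3K27ac levels were 284, 293 and 275 in WT and 277, 265 and 272 in LKO, so the groups overlapped. Of 8485 peaks, 0 rose and 0 fell by edgeR, beside 0% and 0% of all H3K27ac peaks, and at an unadjusted p below 0.05 there were 55 higher and 445 lower. DESeq2 called 3 lower. The median log2 fold change was -0.06 at promoter peaks and -0.01 at distal peaks.

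PPARa signal per total tags was lower in PPARa_KO liver at the median of the tested peaks, and a minority of these peaks were called lower. The tested peaks covered 42.1% of promoter peaks. Median levels were 2.12 and 2.29 in WT and 1.37 and 0.733 in KO, about 1 or 2 tags per peak in KO. Of 4936 peaks, 0 rose and 818 fell (16.6%) by edgeR, beside 0.0174% and 27.6% of all PPARa peaks, and the median log2 fold change was -1.20 at promoter peaks and -1.89 at distal peaks. Under TMM scaling, which moved the median of all peaks by 1.46, the median was 0.26 at promoter peaks and -0.46 at distal peaks, and 18 rose and 94 fell. Leaving out either WT library ended all calls, and DESeq2 called 4 higher and 26 lower. Acadm, the medium-chain acyl-CoA dehydrogenase of mitochondrial oxidation, had PPARa levels of 29.0 and 32.1 in WT and 2.75 and 2.93 in KO (-3.39 ± 0.38, edgeR adjusted p = 1.8e-05). C3, the complement component, had 31.9 and 33.7 against 2.06 and 4.4 (-3.32 ± 0.38, edgeR adjusted p = 1.9e-05). Dbi, an acyl-CoA binding protein gene, had 26.9 and 32.1 against 0.687 and 0, and Ech1, an enoyl-CoA isomerase gene, 46 and 32.9 against 2.06 and 0.733. Of the 39 PPARa peaks at PPARa target genes, 23 fell, at a median of -2.70. At the 82 promoter peaks with a DR1 match, 73 of which were in this table, the median was -2.24 against -1.17 at the rest.

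GPS2 at promoter peaks was lower per total tags in PPARa_KO liver, but almost no promoter peak was called and the direction depended on scaling. Median levels were 8.33, 7.80 and 12.3 in WT and 7.28, 6.81 and 4.33 in KO, with no overlap. Of 6332 GPS2 peaks, 0 rose and 2 fell (0.0316%) by edgeR, beside 0% and 0.273% of all peaks, with 0 higher and 516 lower at an unadjusted p below 0.05. The median log2 fold change was -0.64, against -1.04 at distal peaks, and it was 0.28 and -0.10 under TMM scaling, which moved the median of all peaks by 0.94. The share of peak tags that lay in promoter peaks was 23.4%, 24.1% and 19.9% in WT and 25.7%, 25.8% and 28.7% in KO. One of the 2 falls was at Acaa1b, with 7.63, 7.80 and 34.6 in WT and 2.91, 3.03 and 1.44 in KO (-2.71 ± 0.66, edgeR adjusted p = 0.0262), where WT replicate 3 lay far above the other WT libraries. DESeq2 and TMM scaling called 0 lower, and leaving out 1 library gave 0 to 2.

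NCOR fell at a small set of promoter peaks in PPARa_KO liver, among them those of several fatty acid oxidation genes. Median levels were 15.4, 16.3 and 16.9 in WT and 13.9, 15.5 and 10.7 in KO. Of 10190 NCOR peaks at promoter peaks, 1 rose (0.00981%) and 57 fell (0.559%) by edgeR, beside 0.136% and 2.51% of all NCOR peaks, at a median log2 fold change of -0.24 (0.06 under TMM scaling, which moved the median of all peaks by 0.30). Under TMM scaling 39 rose and 17 fell, and DESeq2 called 5 higher and 6 lower. Leaving out KO replicate 3 or WT replicate 3 left 16 falls. Slc25a34, a mitochondrial carrier gene, had NCOR levels of 41.4, 35.3 and 41.3 in WT and 8.17, 7.41 and 5.69 in KO (-2.46 ± 0.37, edgeR adjusted p = 3.1e-08). Abcd2, a peroxisomal fatty acid transporter gene, had 25.2, 34.4 and 40.4 against 8.99, 10.8 and 7.83 (-1.84 ± 0.36, edgeR adjusted p = 9.5e-05). Slc25a20, the mitochondrial carnitine carrier, had 31.7, 20.6 and 34.5 against 12.3, 7.41 and 5.69 (-1.79 ± 0.38, edgeR adjusted p = 3.6e-04). In these 3 no KO library reached the lowest WT library. Decr1 (-1.43) and Fgf21 (-2.27) also fell, while the rise was at C4a with 58.5, 54.2 and 25.3 against 74.4, 88.9 and 71.9 (0.77). At the 468 promoter peaks with PPARa in both WT lists of this line, 20 of 459 NCOR peaks fell, and the median was -0.25.

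**Figure D5:**
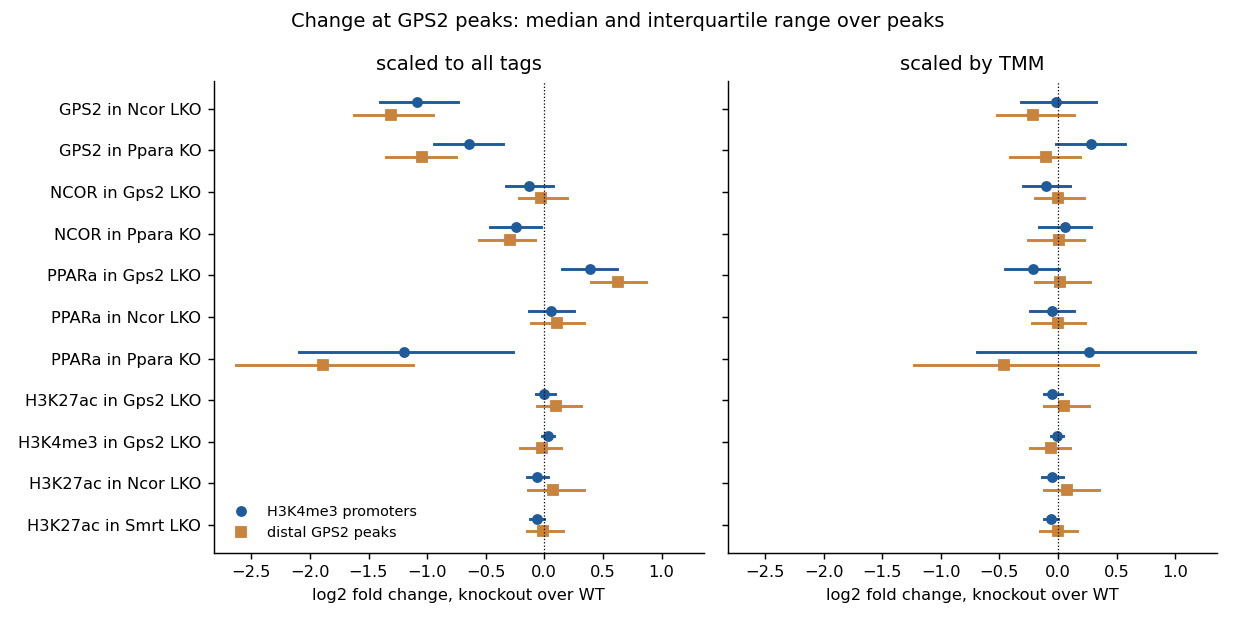
Median (point) and interquartile range (line) over peaks of the log2 fold change of knockout over WT in the 11 replicated ChIP-seq comparisons, at promoter peaks (circles) and distal peaks (squares), scaled to all tags (left) and by TMM (right). GPS2 in NCOR_LKO moves from -1.09 to -0.02 between the scalings and PPARa in GPS2_LKO from 0.39 to -0.21. TMM shifts the circles and squares of a comparison together.

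The rule limited promoter peaks to start sites with H3K4me3, which marks active genes. RNA of H3K4me3 genes without GPS2 was not compared, so the part of GPS2 in the RNA level was not tested. Genes with a promoter peak were highly expressed. Their median RNA level in GPS2_WT liver was 6.83 RPKM and 87.1% reached 1 RPKM. Genes with a distal peak but no promoter peak had a median of 0.691, and genes with neither 0.609. The 605 GPS2 peaks near a start site that lacked H3K4me3 in both lists did not enter this grouping. Of 8248 such genes tested, 1689 rose (20.5%) and 2046 fell (24.8%) in GPS2_LKO liver by edgeR, beside 23.4% and 21.4% of all 12220 genes tested, at a median log2 fold change of -0.02. Of 1847 genes with a distal peak but no promoter peak, 29.4% rose and 19.3% fell. Among genes with 5 to 12 GPS2 tags at their strongest promoter peak 19.9% rose and 19.1% fell, and among genes with 26 to 119 tags 23.8% rose and 31.3% fell. The median RNA level of the tested genes was 4.26 RPKM in the first set and 14.4 in the second, and the median log2 fold change was 0.02 and -0.03. The part of expression level in these shares was not tested. In bulk liver, fewer cells of a type and less RNA per cell cannot be told apart.

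The direction of the RNA change went with gene length. Genes with a promoter peak that rose had a median exon length of 1922 bp, those that fell 4530 bp and those not called 2870 bp. Across the 8248 genes the log2 fold change correlated with exon length at a Spearman rho of -0.51, and the median was 0.22 among genes shorter than 1899 bp and -0.26 among those longer than 4531 bp. Without LKO replicate 2 the correlation was -0.57, and after the length trend was removed it was -0.03. Signs of the RNA of other liver cells moved too. All 5 Kupffer cell markers and all 5 stellate cell markers rose, with summed normalized counts of 1166 to 1213 in WT and 1591 to 1893 in LKO for the former and 2136 to 2225 against 3867 to 4085 for the latter. Of 5 markers each, 3 rose for hepatocytes (1741090 to 1803366 against 2345299 to 2787590), 3 for cholangiocytes (1024 to 1093 against 1449 to 1773), 2 for endothelial cells (1659 to 1759 against 1826 to 2006) and 1 for lymphocytes (81.8 to 101 against 122 to 140), none fell and no marker was at 0. The part of length and of these cells in the results below was not tested beyond the length-corrected counts given.

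RNA calls of gene groups with promoter peaks are given here beside 20.5% higher and 24.8% lower among all tested genes with a promoter peak. Of 36 listed PPARa targets 30 had a promoter peak (83.3%), beside 8629 of all 14583 genes in RNA-seq. Across the 14 lists this share ran from 65.8% to 92.3%. Of the 30 PPARa targets, 15 rose and 7 fell in RNA (14 and 7 after the length trend was removed). Fgf21 rose most, from 12.4 ± 3.67 to 247 ± 34.9 normalized counts (SD, n = 4 each, log2 fold change 4.30 ± 0.19 SE, edgeR adjusted p = 7.4e-10). Acot2 (1.95), Acot1 (1.61), Abcd2 (1.61), Acot4 (1.27), Pdk4 (1.17), Acaa1b (1.09) and Fabp1 (0.74) rose, and Pex11a (-0.63), Angptl4 (-0.36), Etfdh (-0.32), Cpt2 (-0.30), Acsl1 (-0.29) and Slc25a20 (-0.22) fell. Cpt1a, the gate of mitochondrial fatty acid entry, had a log2 fold change of 0.01 (edgeR adjusted p = 0.936). Of 7 lipogenic genes with a promoter peak 6 rose and 0 fell at a median of 0.73, among them Me1 (0.94), Thrsp (0.93), Acly (0.83), Scd1 (0.73) and Fasn (0.69), also after the length trend was removed. Of 11 cholesterol synthesis genes 6 rose and 2 fell, with Fdps at 0.64 and the regulator Srebf2 at -0.56.

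For genes of the respiratory chain, ribosomes and proteasome, which are short, the RNA counts depended on the exon length trend. Of 64 tested respiratory chain genes with a promoter peak (median exon length 782 bp), 44 rose and 0 fell at a median of 0.34, and after the length trend was removed 12 rose and 6 fell at a median of 0.02. For the mitochondrial ribosome, 25 of 63 rose and 0 fell, against 5 and 9 after removal, and for the proteasome 10 of 25 rose and 0 fell, against 3 and 3. For the cytosolic ribosome (813 bp) 44 of 54 rose and 0 fell, and 28 rose and 0 fell after removal. Ribosomal protein genes have many processed copies in the genome, so reads may be shared with those. Of 12 liver secreted protein genes 8 rose, including Ahsg (0.81), Apoc3 (0.78) and Alb (0.63), and Apob fell (-0.82). Of 11 clock genes 2 rose, with Cry1 at 0.51 and Dbp at 0.27, and 4 fell, including Clock at -1.15, Hlf at -0.87 and Nr1d1 at -0.52. Among all tested genes with a promoter peak 20.5% rose and 24.8% fell, and the group counts were not tested against these shares.

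Regulators with a promoter peak changed in both directions, beside 20.5% higher and 24.8% lower among all tested genes with a promoter peak. Of 4 tested genes of the corepressor complex, Ncor1 fell from 1782 ± 95.8 to 1144 ± 296 normalized counts (log2 fold change -0.63 ± 0.13, edgeR adjusted p = 0.00213) and Tbl1x from 420 ± 35.3 to 277 ± 88.7 (-0.58, edgeR adjusted p = 0.0127), while Hdac3 (-0.12) and Tbl1xr1 (-0.13) did not pass. Gps2 itself had 261, 251, 266 and 240 normalized counts in WT and 202, 157, 146 and 205 in LKO (-0.53 ± 0.11, edgeR adjusted p = 0.0021). Of 21 nuclear receptor genes 5 rose, including Nr0b2 (0.48) and Nr1i3 (0.47), and 8 fell, including Ppard (-0.50), Thrb (-0.46), Hnf4a (-0.41) and Ppara (-0.39 ± 0.12, edgeR adjusted p = 0.0205). Ppara did not pass after the length trend was removed (edgeR adjusted p = 0.0731) or without LKO replicate 1, 3 or 4 or WT replicate 2 or 3 (0.0524 to 0.0685). Of 9 hepatocyte transcription factor genes 2 rose, Foxa2 (0.75) and Cebpa (0.53), and 4 fell. Of 15 genes of ubiquitous promoter factors 1 rose and 2 fell, and of 9 genes of mitochondrial transcription and import 1 rose and 0 fell.

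The largest RNA changes among genes with a promoter peak, besides Fgf21, were rises of Slc16a5 (2.81), Tmem86a (2.54), Nt5e (2.47) and H2-Q1 (2.45). Slc16a5 went from 54.5 ± 10.1 to 382 ± 8.67 normalized counts. The falls were C4a (-3.01), Selenbp2 (-2.71), the fatty acid elongase Elovl3 (-2.68), Nat8f5 (-2.48) and Acot11 (-1.94), with Elovl3 going from 844 ± 39.6 to 134 ± 25.7. For both, the groups lay further apart than their SDs. C4a, Selenbp2, H2-Q1 and Nat8f5 have near-identical copies.

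Pdk4, which codes for the kinase that turns off pyruvate dehydrogenase, is described here across the lines. Its GPS2 peak at -187 bp, printed above, held 62.6 tags per 10 M (50.8 to 76.4) in WT and 0 in LKO, where the interval reaches 2.49. NCOR had levels of 59.2, 67.9 and 33.6 in WT and 50.2, 59.6 and 28.7 in LKO, and PPARa had 138, 144 and 119 against 228, 173 and 140 (edgeR adjusted p = 0.22). H3K27ac had 195 and 207 against 255 and 280 in GPS2_LKO (log2 fold change 0.41 ± 0.10, edgeR adjusted p = 0.0888). In these livers the LKO libraries lay above WT for H3K27ac, and the NCOR groups overlapped.

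In the other lines, H3K27ac at Pdk4 had 204, 227 and 168 in WT and 331, 316 and 294 in NCOR_LKO (0.65 ± 0.13, edgeR adjusted p = 0.0236, and 0.0543 to 0.092 without any 1 WT library), and 343, 391 and 288 against 321, 379 and 404 in SMRT_LKO (edgeR adjusted p = 0.904). GPS2 had 69.1, 94.0 and 25.2 against 26.1, 27.2 and 21.8 in NCOR_LKO (edgeR adjusted p = 0.119), and 13.9, 24.7 and 36.9 against 13.8, 9.08 and 5.05 in PPARa_KO (edgeR adjusted p = 0.165). PPARa in PPARa_KO had 13.4 and 16.8 against 3.43 and 2.93 (-2.21 ± 0.47, edgeR adjusted p = 0.0024, and 0.58 under TMM scaling). NCOR had 100, 115 and 108 against 112, 109 and 66.2 there. RNA rose from 23.7, 41.6, 45.3 and 32.4 normalized counts to 78.3, 80.0, 77.8 and 89.0 in GPS2_LKO (1.17 ± 0.17, edgeR adjusted p = 1.5e-04).

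The promoter peaks with the most GPS2 tags differed from Pdk4 and from each other. Cdkn1a, the gene of the cell cycle inhibitor p21, held its peak of 116 tags in intron 1, 922 bp downstream. Its H3K27ac in the NCOR line had 98.3, 111 and 117 in WT and 321, 189 and 217 in LKO (1.15 ± 0.18, edgeR adjusted p = 0.0111, and 0.0511 or 0.0602 without WT replicate 1 or 2), and its RNA in GPS2_LKO rose from 17.3 ± 4.44 to 32.9 ± 2.49 normalized counts (0.92). Socs2, a brake of growth hormone signalling, had RNA counts of 148, 191, 178 and 155 in WT and 437, 341, 360 and 402 in LKO (1.19 ± 0.11, edgeR adjusted p = 1.6e-06), with Pol II at 62.6 (49.1 to 78.7) against 103 (85.2 to 122). Tbl1xr1 had H3K27ac at 933, 943 and 829 against 1379, 1726 and 1494 in NCOR_LKO (0.77 ± 0.11, edgeR adjusted p = 0.00676), with groups that did not overlap. Its RNA in GPS2_LKO did not pass the test, and neither did its H3K27ac in SMRT_LKO, with 1072, 1184 and 920 against 1196, 1326 and 1488 (edgeR adjusted p = 0.834).

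Crat, the carnitine acetyltransferase, held its 110 tags 345 bp downstream of the start site. Its PPARa level was 19.8 and 13 in WT and 2.75 and 0.733 in PPARa_KO (-3.16 ± 0.56, edgeR adjusted p = 7.0e-04), and its RNA rose by 0.40 on the log2 scale in GPS2_LKO, from 436 ± 30.5 to 574 ± 44.4 normalized counts. Ndrg2, with the most GPS2 tags of all promoter peaks, had H3K4me3 at 1577 and 1421 in WT and 1909 and 1835 in GPS2_LKO (0.32 ± 0.07, edgeR adjusted p = 0.0456) and RNA at 21289 ± 81.3 against 25628 ± 1102 (0.27). PPARa at Cdkn1a (18.4 and 18.4 against 3.43 and 2.20) and at Ndrg2 (9.20 and 19.1 against 3.43 and 2.93) also fell in PPARa_KO, at edgeR adjusted p-values of 4.4e-04 and 0.00786. At Crat, Cdkn1a and Ndrg2 this call was lost under TMM scaling, at adjusted p-values of 0.118, 0.245 and 0.669.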

How the data were processed

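Livers were profiled by ChIP-seq and polyA RNA-seq. Per the submitters' processing notes and the study's methods, the authors aligned ChIP-seq reads to mm9 with Bowtie2 (the methods name Bowtie) and called peaks and counted tags with HOMER, and they aligned RNA-seq reads with HISAT2. The study's methods name HOMER for counting RNA in exons, while the notes also name featureCounts. No program versions are stated in these sources. The deposited ChIP-seq values used here are raw tag counts per peak, and the deposited RNA values are raw read counts per gene. The RNA table also holds the authors' own fold changes and p-values, which were not used. The labels name a double crosslink for all ChIP-seq, whereas the study's methods name formaldehyde alone for histone marks.

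ChIP-seq depth ran from 7.90 M to 46.1 M tags per library, and RNA-seq depth from 13194385 to 20086127 reads. Differences were tested on the tag counts with edgeR 4.0.16 (quasi-likelihood, R 4.3.3), with library size set to total tags, over all peaks of a table with at least 1 tag, and Benjamini-Hochberg adjustment over all of them at 0.05. RNA used TMM and filterByExpr over all genes, and the statistic was tested on simulated data. Levels are tags per 10 M total tags. Each factor's own peaks, called on its own libraries, stood for a promoter peak where they overlapped it by 1 bp. Comparisons with 1 library per group were counted past 2-fold with exact Poisson intervals. Motifs and printed sequences came from the NCBIM37 (mm9) genome with GENCODE vM1, and the printed stretches leave out annotated exon bases. The alternatives were TMM, filterByExpr or no filter, DESeq2 1.42.0, the replicate block, leaving out each library, a 101-bp motif window, RNA without its exon length trend and, chosen after seeing the data, the PPARa libraries of GPS2_WT as deposited.

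Genes named were those of 14 lists, the 5 promoter peaks with the most GPS2 tags, and the 3 largest rises and falls per comparison (5 for RNA) among calls with groups that did not overlap and a mean of at least 20 tags or 100 normalized counts. Among listed genes, those with values in the text were picked after their values were seen. The promoter peaks and lists were chosen with earlier results of these data known. Correlations of same-numbered libraries, taken over peaks as deviations from the group mean, ran from -0.15 to 0.27, and the main fits used no pairing. This check cannot see a shift shared by all peaks of a library, so it cannot settle whether replicate numbers pair the libraries. The share of NCOR tags in peaks was lowest in replicate 3 of both GPS2_WT (8.26%) and GPS2_LKO (7.33%). For PPARa in the NCOR line, replicate 3 was lowest in WT (8.96%) and highest in LKO (21.1%). A few genes are not reported here.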

Additional observations from a re-analysis of the deposited data

Results flagged for a closer look

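Among the 48 groups of 4 RNA libraries looked at for the named genes, 2 held a library far from the other 3, and chance alone puts about 1 in 20 groups past this limit (Dixon's 95% critical value of the gap over the group's range). Ppara in GPS2_LKO had its highest library, replicate 2, at 5546 normalized counts against a group median of 3635, a gap of 0.85 of the range. Ndrg2 in GPS2_LKO had its lowest library, the same replicate 2, at 23989 against a median of 26117, a gap of 0.86. Both come from the LKO library that stood apart in RNA-seq.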

How the results depend on the processing

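All counts here are promoter peaks called at an adjusted p below 0.05, and the cause of these differences was not tested. For H3K27ac in GPS2_LKO, the 53 rises became 31 with TMM, 197 with the replicate block and 0 to 165 leaving out 1 library, and the 8 falls became 21 with DESeq2, 50 with the block and 0 to 110. For H3K4me3, the 95 rises became 249 with the block and 43 to 140 leaving out 1 library, and the 10 falls became 17 with TMM, 40 with the block and 3 to 19. For NCOR in GPS2_LKO, the block called 1 rise and 4 falls, TMM 5 falls, DESeq2 1 fall, and leaving out 1 library 0 to 1. For PPARa in GPS2_LKO, the 821 rises became 1 with TMM, 0 with DESeq2, 2132 with the libraries as deposited and 303 to 1166 leaving out 1, and the 12 falls became 54, 1, 24 and 2 to 21. For GPS2 in NCOR_LKO, rises were 9 with TMM, 5 with DESeq2 and 0 to 2 leaving out 1, and falls 18 with TMM, 144 with filterByExpr, 1431 with the block and 0 to 5929. For PPARa in NCOR_LKO, rises were 8 with TMM and 2 with DESeq2, and falls 17, 5 and, leaving out 1, 0 to 9. For H3K27ac in NCOR_LKO, the 68 rises became 118 with DESeq2, 42 with the block and 19 to 95, and the 50 falls 85, 25 and 7 to 113. In SMRT_LKO DESeq2 called 3 falls. For GPS2 in PPARa_KO, TMM called 2 rises, and the 2 falls became 0 with TMM, DESeq2 or the block, 1 with filterByExpr and 0 to 2. For NCOR in PPARa_KO, the 1 rise became 39 with TMM, 0 with filterByExpr or the block, 5 with DESeq2 and 0 to 2, and the 57 falls 17 with TMM, 6 with DESeq2, 28 with the block and 16 to 64. For PPARa in PPARa_KO, rises were 18 with TMM, 4 with DESeq2 and 0 to 4, and the 818 falls became 94 with TMM, 26 with DESeq2, 0 with the block and 0 to 688. The share of promoter peaks with an ETS, NRF1, YY1 or CREB/ATF motif was 13% and became 7.89% in 101-bp windows. RNA counts stayed within 1.5 times of 1689 rises and 2046 falls in DESeq2 (1361 and 2164), the block (1763 and 2165) and without the exon length trend (1511 and 2075), with 1308 to 2143 rises and 1593 to 2770 falls leaving out 1 library. Of 603 settings tried on the 62 calls of single genes and peaks, 520 kept direction and call, 83 lost the call and 0 reversed.

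With 1 GPS2 and 1 Pol II library per group, their differences have no replicate check. With 2 libraries per group, H3K27ac, H3K4me3 and PPARa in PPARa_KO rest on few values. At PPARa levels near a single tag, as in PPARa_KO, depth cannot show a fall at most promoter peaks. Scaling to total tags and TMM make different assumptions about the typical peak, and the choice shifts all peaks of a comparison together.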

Other observations

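At the 468 promoter peaks with PPARa in both WT lists of the PPARa line, 21 of 449 H3K4me3 peaks rose in GPS2_LKO and 0 fell, and 18 of 449 H3K27ac peaks rose and 2 fell in NCOR_LKO. Over all promoter peaks these shares were 1.12% and 0.118% for H3K4me3 and 0.801% and 0.589% for H3K27ac. In GPS2_LKO 5 of 449 H3K27ac peaks at the 468 rose and 1 fell, against 49 and 8 of 8309 at the other promoter peaks. The median PPARa log2 fold change in GPS2_LKO was 0.36 against 0.39. In RNA 129 of 416 tested genes rose and 121 fell, against 1592 and 1994 of 7968. At the 4504 promoter peaks with neither NCOR nor PPARa, 15 of 3971 H3K27ac peaks rose and 2 fell in GPS2_LKO, and 750 of the 3791 tested genes rose and 947 fell in RNA. Over all promoter peaks the H3K27ac shares were 0.625% and 0.0944%, and over all tested genes with a promoter peak the RNA shares were 20.5% and 24.8%, near those of this subset. The 82 promoter peaks with an HNF4A motif, bound by the liver receptor HNF4A, had an NCOR level of 30.4 against 10.6 in the others and RNA of the nearest gene at 16.2 against 7.34 RPKM. These are values with no test.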
